A study of Mus musculus with 2 samples.

Results

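The 210 positions described here are 60-base probes for long intergenic non-coding RNA (lincRNA) regions that were brighter on the tooth array than on the skin array of newborn mice. They were chosen by the measured difference itself: a probe whose description named a lincRNA region had to be well above background on both arrays, and its skin minus tooth value had to be at or below -1 on the log2 scale, which is a signal at least 2-fold higher in tooth. Of 16248 lincRNA probes on the array, 4867 were detected on both arrays and 210 of these, 4.31%, met that limit. The number depends on the scaling and background correction: it was 707 with spike-in scaling, 321 with median scaling and 90 with normexp background correction, which kept 89 of the 210. The difference is therefore a description of how the members were picked and carries no test.

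The study profiled gene expression in teeth and skin of wild-type (WT) mice at postnatal day 0 by the labels, while its methods give day 1. Tooth and skin were each hybridised to 1 array, and the number of animals behind each array was not given in the sources used here. No treatment or mutant allele entered this comparison. With 1 array per tissue there was no replicate check, no p-value was computed, and fewer cells of a type could not be told apart from less RNA per cell. The tissue labels were checked on defining genes. All 7 enamel genes, the secreted proteins and proteases of the ameloblast, were above background in tooth, and 6 of them were not above background in skin. All 13 dentin and bone genes were above background in tooth and 8 in skin. Of the 8 epidermal genes, 7 were above background on both arrays and all 7 were higher in skin by at least 1 log2 unit. Some genes of each surface were also read on the other array. Krt1, a keratin of the upper epidermis, read -0.80 in tooth and 9.13 in skin, and Klk4, an enamel protease, read 3.40 in tooth and -2.52 in skin. Genes of hair (6 of 6 measured on both arrays), muscle (5 of 5), fat (2 of 2) and melanocytes (4 of 4) were all at least 1 log2 unit higher in skin, and their part in the values below was not tested. Genes of other tissues were mixed within their lists. Of the cartilage genes, Col2a1, a collagen, read 1.71 in tooth and was not well above background in skin. Acan, the cartilage proteoglycan, was at -1.36, whereas Col9a1 was at 0.70 and Sox9 at 0.40. Matn1 was below background on both arrays. Sox10, a factor of Schwann cells and melanocytes, was higher in skin at 3.21, while Mbp of the Schwann cell list was at -1.02.

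LincRNAs are transcripts longer than small RNAs that lie between protein-coding genes and have no evident open reading frame. Some act on the genes beside them, as Airn does in imprinting, some carry small nucleolar RNAs or microRNAs in their introns, and for most no function is known. Spans of this kind were often drawn from chromatin marks or early transcript models, so that a span near a gene can also hold an unannotated end of that gene. On this array each span was covered by several probes, many of them on both strands. Values are log2 processed signals less the 75th percentile of the same array, and every difference is skin minus tooth, so that negative values are higher in tooth. Positions are those printed in the array design, on mouse build mm9, and each member is called by the chromosome and first base of its probe.

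The probes with the lowest differences are shown first, because the measurement is made by these bases and several of them share short stretches. The member with the lowest difference and its region mates on the reverse strand of chr6:31786292-31786599 consist of an imperfect tandem repeat. Capitals mark AGTGACA, which occurs 3 times in each of the 3 probes. The second probe printed for Dspp, the gene of the main dentin matrix precursor, whose protein is known for long serine and aspartate repeats, holds the same 7 letters 4 times and is given below them.
chr6:31786303: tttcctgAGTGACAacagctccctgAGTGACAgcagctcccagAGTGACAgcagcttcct
chr6:31786364: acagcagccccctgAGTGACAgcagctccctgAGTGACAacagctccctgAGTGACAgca
chr6:31786424: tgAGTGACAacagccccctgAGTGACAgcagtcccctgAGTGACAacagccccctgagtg
Dspp probe A_55_P2166132: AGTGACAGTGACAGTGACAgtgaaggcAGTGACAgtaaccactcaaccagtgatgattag

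The first of these read 3.84 in tooth and -2.75 in skin, 96.3-fold apart and a skin minus tooth value of -6.59, with an error of 0.26 given by the extraction software. The second read 2.37 and -0.67, and the third 0.21 and -0.93, which left differences of -3.04 and -1.14. All 3 probes of the region on that strand were members, but their differences spanned over 5 log2 units although the probes lay within 181 bases. The Dspp probe printed above read 5.84 in tooth and -4.35 in skin, where it was not well above background, and the other Dspp probe read 7.86 and -5.77. The longest run of bases shared by any of the 3 with a probe of Dspp, Amelx, Ambn or Enam was 8. Only the array probes of these genes were compared, not the rest of their transcripts. Whether RNA of another gene bound to the repeat probes was not tested. No named-gene probe lay within 100 kb of them. Among all 4867 detected lincRNA probes 35 held AGTGACA, or 0.719%. The only members among the 35 were the 3 printed above, and 5 of the 35 were at or above 1, as were 608 of all 4867. Of named genes detected on both arrays, 74 held the word in their representative probe. Of these 74, 9 were at or below -1 (12.2%), where 12.3% of all such named genes were, and 7 were at or above 1.

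A second short word, GCAGCCC, recurred among members that stood alone at their locus. It was found by counting every 7-letter word, after the values were known, over the 76 members with no second member among the other probes of their locus, and it was the word held by most of them, 9 of 76. Those 9 probes come from 9 loci and are shown with the word in capitals.
chr7:111536045: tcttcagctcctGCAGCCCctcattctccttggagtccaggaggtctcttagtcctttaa
chr9:20798089: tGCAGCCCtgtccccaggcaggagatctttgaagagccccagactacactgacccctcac
chr17:3297742: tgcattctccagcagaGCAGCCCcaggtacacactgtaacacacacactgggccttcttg
chr15:78411942: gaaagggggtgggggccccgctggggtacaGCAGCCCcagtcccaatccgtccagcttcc
chr5:125719019: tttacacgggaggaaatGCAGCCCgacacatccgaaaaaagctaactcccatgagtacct
chr10:66560781: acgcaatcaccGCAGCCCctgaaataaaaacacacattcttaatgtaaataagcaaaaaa
chr15:62091014: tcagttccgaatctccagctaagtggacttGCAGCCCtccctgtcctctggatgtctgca
chr8:18918397: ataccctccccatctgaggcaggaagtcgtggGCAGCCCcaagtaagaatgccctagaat
chr1:38892700: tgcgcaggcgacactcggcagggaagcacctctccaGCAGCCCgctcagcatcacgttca

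The word was held by 12 of the 210 members (5.71%), from 12 loci, and by 30 of all 4867 detected lincRNA probes (0.616%), and by 0.406% of all 16248 on the array. With its reverse complement counted too, the shares were 6.19% of the members, 1.03% of the detected and 0.822% of those higher in skin. These shares follow from the way the word was picked and are a description. None of the 608 lincRNA probes that were at least 2-fold higher in skin held it in the printed strand. The probes of named genes did not enter the choice of the word. Of 15271 named genes detected on both arrays, 1883 (12.3%) had a difference at or below -1. The word was in the representative probe of 44 of them, of which 16 were at or below -1 (36.4%) and 4 were at or above 1. What the word shares with RNA in either sample was not tested.

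The values of the 4 lowest holders show how different their companions were. The member at chr7:111536045 read 3.72 in tooth and -0.15 in skin, a 14.6-fold difference, while the other detected probes of its locus, 2 in number, lay at -0.05 and -0.02. The member at chr17:3297742 read 1.09 and -2.69, and 15 other detected probes of its locus ran from -0.31 to 3.48. For chr9:20798089 (2.52 in tooth, -1.30 in skin) and chr15:78411942 (0.24 and -3.20) no other probe of the locus was detected on both arrays. For the first pair the other detected probes were not near the member's value, and for the second pair none could be compared. The nearest named genes were Mrpl4, a mitochondrial ribosomal protein, at 0.07 beside the chr9 member and Rac2, a small GTPase of blood cells, at -2.15 beside the chr15:78411942 member.

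Across all members the difference ran from -6.59 to -1.002 with a median of -1.40, against a median of 0.29 over the 4867 detected lincRNA probes. There were 53 members at or below -2 and 13 at or below -3, and 125 lay between -1.5 and the limit. In tooth their signals ran from -2.60 to 5.83 with a median of -0.38, and in skin from -3.61 to 4.04 with a median of -1.90. Since a member had to be detected in skin as well, where the dimmest signal well above background was -3.73, a dim member had to read at least 1 log2 unit above that in tooth. The plot of all detected lincRNA probes shows the members as the lower edge of one continuous cloud.

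**Figure D1:**
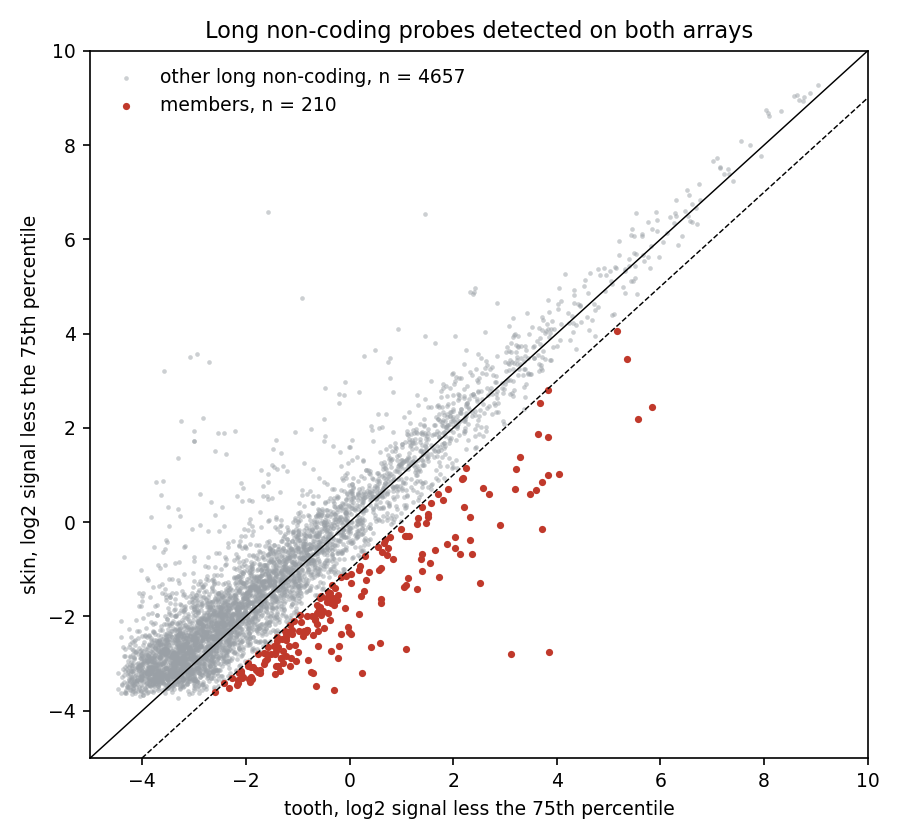
Tooth (horizontal) against skin (vertical) log2 signal less the 75th percentile, for 4867 lincRNA probes detected on both arrays. Red points are the 210 members, grey points the rest, the solid line marks equal values and the dashed line a difference of -1, which every member meets by the rule.

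The limit cut through a dense part of that cloud. The 3 members just inside it were chr11:95629786 at -1.007, chr11:95632993 at -1.006 and chr5:107039605 at -1.002. The 3 probes just outside were chr1:169028546 at -0.993, chr6:34548606 at -0.989 and chr3:10089441 at -0.987. Each member had a single spot per array. Probes printed 8 times or more had a median SD between spots of 0.0765 in tooth and 0.0865 in skin, which gives 0.115 for a difference, while the error from the extraction software had a median of 0.23 over the members. By that software error 90 members lay more than 2 errors below the limit and 120 did not. These errors cover the spots of 1 hybridisation and not the animals.

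How far members were backed by a second probe differed from locus to locus. Same-strand spans that overlapped were joined, which placed the members in 112 of 3370 loci. At 38 loci at least 1 other probe, starting 60 bases or more away, was also a member, and these loci held 134 of the 210 members. A further 51 members had other detected probes at their locus of which none was a member. The 181 probes that stood beside those 51 had a median difference of 0.03, and 83 of them were below 0. Since none of the 181 was a member, all lay above -1 by this choice. At 21 loci the other probes were not detected on both arrays, and 4 members had no other probe that far away. In the member regions as printed, counted by span and strand, 174 other detected probes had a median of -0.20. They ran from -0.99 to 1.79, with 8 at or above 1, while 608 of all 4867 detected lincRNA probes were. Not being members, the 174 also lay above -1 by the rule, which sets their lower end and in part their median. Of 232 further probes there that were not detected on both arrays, 66 were above background in tooth alone and 9 in skin alone. Over all 16248 lincRNA probes these numbers were 1285 and 449. The regions were chosen for a probe higher in tooth, so these counts are a description.

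Closely spaced probes had close differences at Snhg18, a small nucleolar RNA host gene whose intron carries Snord123. All 9 lincRNA probes on the reverse strand at chr15:32170306-32170578 were members. Their tooth signals ran from 1.30 to 3.83 and their skin signals from -1.42 to 1.01 and each was higher in tooth, with differences within the narrow range of -2.96 to -2.72. The named Snhg18 probe, which overlaps several of them, read 3.76 in tooth and 0.95 in skin, which left a difference of -2.81. Several of these probes overlap one another and are not independent readings.

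Such overlaps with a named-gene probe were counted to find lincRNA spans that the array also holds under a gene name. At least 20 bases in a row were shared with a probe of a named gene by 14 members (6.67%), against 126 of all detected lincRNA probes (2.59%). For chr1:139857084 the 20 bases shared with a probe of Fbn2 are a run rich in T, and no Fbn2 is listed at that place in RefSeq. The following members carry the stretch shared with the named probe in capitals.
chr15:32170329, shared with Snhg18: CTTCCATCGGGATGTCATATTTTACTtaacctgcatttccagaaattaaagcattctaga
chr8:40159979, shared with Tusc3: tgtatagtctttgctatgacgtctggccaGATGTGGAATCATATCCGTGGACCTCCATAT
chr8:94850318, shared with Crnde: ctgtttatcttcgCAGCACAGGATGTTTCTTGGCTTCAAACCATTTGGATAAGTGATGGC
chr4:114588837, shared with Foxd2os: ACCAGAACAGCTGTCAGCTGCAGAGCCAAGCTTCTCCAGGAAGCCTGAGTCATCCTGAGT
chr3:58601194, shared with 4930593A02Rik: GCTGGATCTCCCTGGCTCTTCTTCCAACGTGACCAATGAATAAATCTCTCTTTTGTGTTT
chr16:4592915, shared with D330022H12Rik: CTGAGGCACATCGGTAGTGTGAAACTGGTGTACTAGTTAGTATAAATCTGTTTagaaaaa

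Most of the named probes were at or below -1 as well, though not always close to the member. Tusc3, a subunit of the oligosaccharyltransferase that N-glycosylates proteins, was at -2.47 and its member at -2.21. Crnde, a lincRNA beside Irx5, was at -1.91 and its member at -1.18. Foxd2os, transcribed beside the forkhead gene Foxd2, was at -1.49 and its member at -1.82. For 4930593A02Rik, Foxd2os and Man1a2 the whole 60 bases were the same, so that one sequence was read at different spots. The readings of gene probe and member were -2.62 and -2.50 for 4930593A02Rik and -1.49 and -1.82 for Foxd2os. For Man1a2 they were -1.08 and -1.16. D330022H12Rik lay on the limit and the member shown at -1.47. One pair went apart: 2010204K13Rik was at -0.08, while the member that shared 50 bases with it, chrX:7000005, was at -1.10. A single member, chr7:111536045, was complementary to a named probe, that of LOC100046632, which was below background on both arrays.

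Members were grouped by their position along chromosomes. Joined at gaps of up to 100 kb, whichever the strand, they formed 104 clusters, and 39 of these held 2 or more members and 145 of the 210 (69.0%). The array places several probes in each span, and all detected lincRNA probes joined in the same way had 92.3% in clusters of 2 or more. That set is denser, 4823 probes with coordinates, and a denser set joins more often at a fixed gap. The 2 shares therefore do not show whether members cluster more or less than other probes. By chromosome, 27 members were on chromosome 16, 26 on 15, 23 on 8 and 18 on 10. That was 15.9%, 12.4%, 7.44% and 9.47% of the detected lincRNA probes there, beside 4.31% over all. Several members can come from 1 locus, and these members came from 8, 11, 10 and 8 loci. Chromosome 19 had none of 114. The 5 largest clusters held 45 members, and chromosome 16 had 16 members outside its largest cluster.

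**Figure D2:**
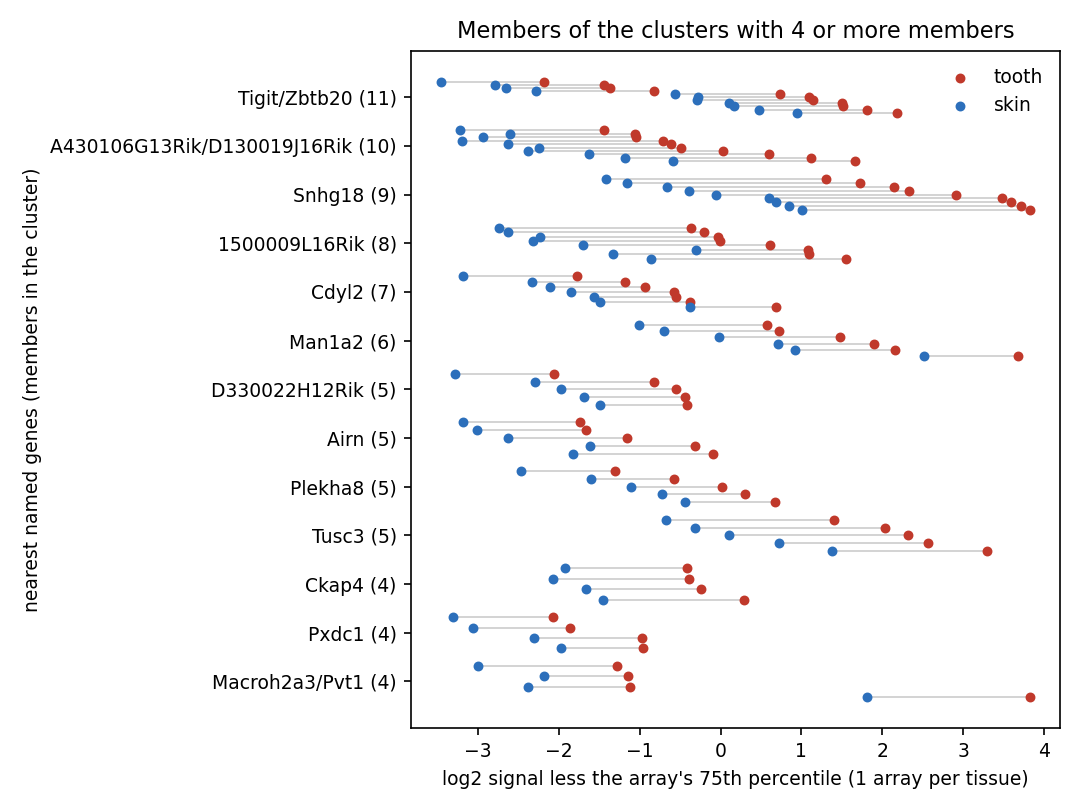
Log2 signal less the 75th percentile of each member in tooth (red) and skin (blue), joined by a line, for the 13 clusters with 4 or more members, named by the nearest named genes with the number of members in parentheses. At Snhg18 the differences stay between -2.96 and -2.72, whereas in the cluster of 1500009L16Rik they run from -2.43 to -1.38.

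The cluster with most members, 11, lay on the forward strand at chr16:43623890-43641920, by RefSeq order between Zbtb20, a zinc finger transcription factor on the same strand, and Tigit, an immune receptor gene on the other. Differences ran from -1.46 to -1.24 while signals ran from -2.18 to 2.19 in tooth and from -3.46 to 0.94 in skin. Zbtb20 read 1.33 in tooth and -0.03 in skin and so lay at -1.37, close to the members, and Tigit was below background on both arrays. Of 15 detected lincRNA probes within the extent, both strands included, 11 were thus members and the median of all 15 was -1.30. The next cluster held 10 members on the forward strand of chr1:139796208-139857143, over 60.9 kb, with differences from -2.49 to -1.55. The named transcripts D130019J16Rik within the cluster (-0.88 in tooth, -2.31 in skin) and A430106G13Rik, 9225 bases from a member (-0.31 and -1.89), were also at or below -1. In the RefSeq order of genes (GRCm38.p6) this stretch falls between Nr5a2 and Ptprc, where Mir181a-1 and Mir181b-1 and 4 lncRNA genes are listed. The microRNAs themselves were not measured.

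At chr10:83184863-83225493 8 members ran from -2.43 to -1.38, of which 7 lay on the forward strand, within 480 bases of the probe of 1500009L16Rik. That gene was above background in tooth only (-1.77 in tooth, -4.24 in skin). The lone reverse-strand member of the cluster, chr10:83184863, was the one at -1.38. At chr8:119092655-119093346 7 reverse-strand members were between -1.41 and -1.02, and Cdyl2, a chromodomain gene on the same strand 4981 bases away, was at -1.71. At chr3:100366186-100366834 6 reverse-strand members were between -1.58 and -1.16, and Man1a2, a Golgi mannosidase that trims N-glycans, was at -1.08. The plot of lincRNA probes along these clusters shows members next to one another, and some detected probes of other differences close beside them. The reverse-strand probe chr10:83185154 lay at 0.13, 0.291 kb from the first member of its cluster. On chromosome 16 the reverse-strand probe chr16:43624101 lay at 0.70, 0.211 kb from the first member.

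**Figure D3:**
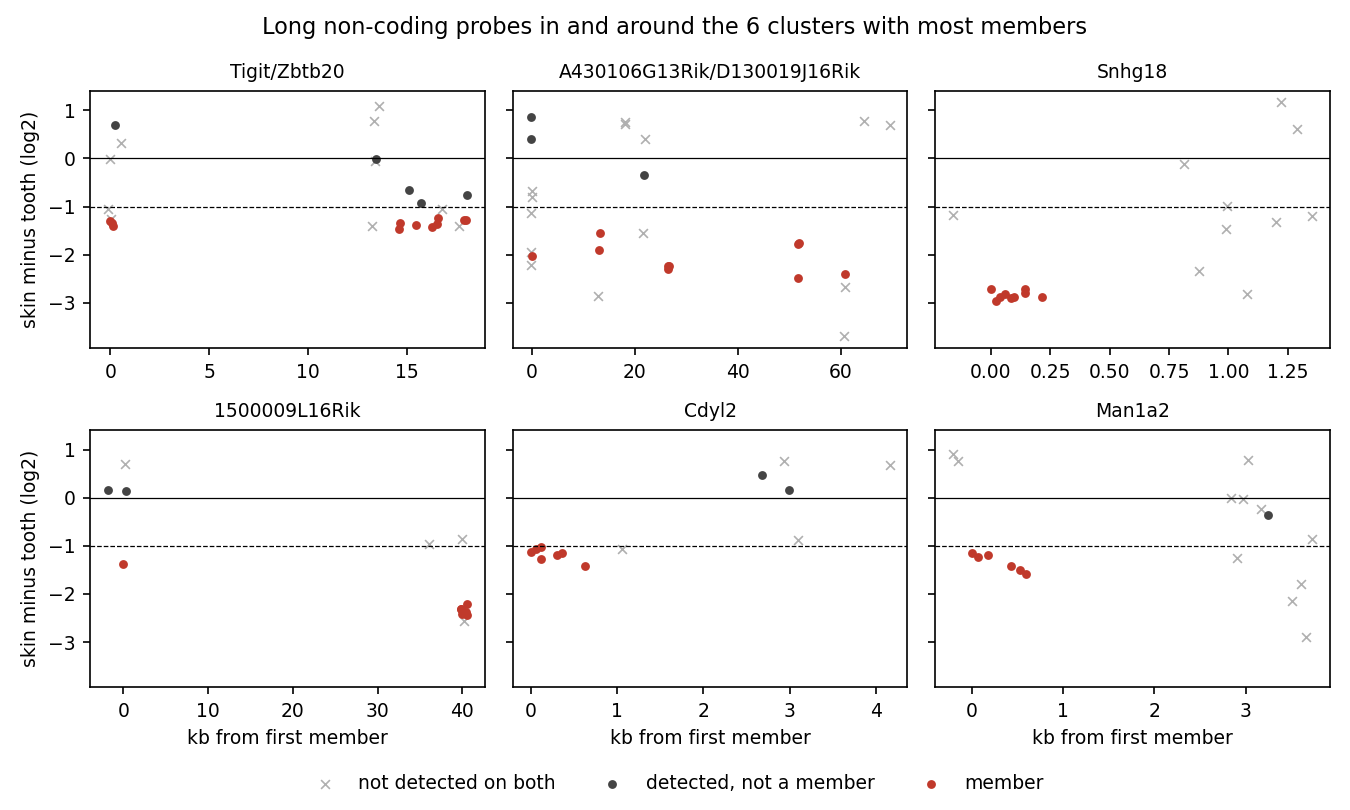
Skin minus tooth (log2) of each lincRNA probe, both strands, against its distance in kb from the first member, for the 6 clusters with most members. Red points are members, black points detected probes that are not members, and grey crosses probes not detected on both arrays; the dashed line is the limit of -1. At Snhg18 the 9 members lie between -2.96 and -2.72.

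The members beside genes of the lists on tooth development and imprinting are given next, with no claim that such genes are more frequent there. Airn, an imprinted non-coding RNA that silences Igf2r on the paternal copy in cis, had 5 members on its own strand: 4 at chr17:12944295-12944639 with differences from -1.46 to -1.30, and chr17:13013684, which read -0.09 in tooth and -1.82 in skin. The Airn probes disagreed. The representative one was at -0.34 (1.34 in tooth, 0.999 in skin), a second at -1.01, and 2 more were above background in tooth only. Igf2r, on the opposite strand, was just above the limit at -0.995 (2.62 in tooth, 1.63 in skin). A single member, chr7:67114753 (-1.24 in tooth, -2.38 in skin), lay near Snrpn, an imprinted splicing factor gene, whose representative probe was at -1.58. Of the 23 imprinted-cluster genes detected on both arrays, 7 were at or below -1, where the share over all named genes is 12.3%, and none at or above 1 (11.4% over all). Phlda2 was above background in skin only.

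Crnde and Irx5, an Iroquois homeobox gene 34546 bases from the nearest member, were both at -1.91, and the 3 Crnde members on the reverse strand ran from -1.24 to -1.18. Irx6 of the same gene group read 0.74 in tooth and -2.86 in skin, or -3.60, whereas Irx3 was at 0.29. Beside Smad7, an inhibitor of TGF-beta and BMP signalling, 3 reverse-strand members on chromosome 18 ran from -2.59 to -2.16. Smad7, which lies on the opposite strand 36857 bases away, read 1.32 in tooth and -0.37 in skin, or -1.69. Ctif, on the members' strand 72381 bases away, read 4.25 in tooth and 1.86 in skin, or -2.39. Dym, 71982 bases away, was at -0.32. Wnt7b, an epithelial Wnt ligand, went the other way: it was at 1.92, higher in skin, while the member 54916 bases from it, chr15:85421871, was at -1.46. Of 41 dental transcription factors detected on both arrays, 18 were at or below -1 and 8 at or above 1, and of 23 dental signals and receptors 10 and 4, beside 12.3% and 11.4% of all named genes.

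Near Sp7 (osterix), a transcription factor required for bone-forming cells, 3 forward-strand members lay at chr15:102104187-102104546 with differences from -1.49 to -1.11. Sp7 itself, 83146 bases away, was above background in tooth only (0.33 in tooth, -3.53 in skin), and Gm9918, which shares bases with the member at chr15:102104487, was at -1.29. Genes nearer than Sp7 went both ways. Itgb7, 57678 bases away, was at -2.33, while Mfsd5, 7245 bases away, was at 0.76 and Rarg, a retinoic acid receptor, at 0.64. The other genes nearer than Sp7, apart from Gm9918, lay between -0.24 and 0.64. Around Pvt1, a lincRNA next to Myc, the forward-strand member chr15:62091014 read 3.83 in tooth and 1.82 in skin. The Pvt1 probes disagreed, at 0.09 for the representative one and -1.54 for another. On the other strand of that cluster 3 members near Macroh2a3, a transcribed pseudogene, ran from -1.71 to -1.04, and Macroh2a3 was at -1.21.

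The members picked for their tooth signal were of both kinds, with and without companions. The brightest, chr10:94906076, read 5.83 in tooth and 2.44 in skin, and no other probe of its locus was detected on both arrays. Socs2, a suppressor of cytokine signalling in the same cluster, was at -2.01, and chr10:94871047 beside it was a member at -1.28. The member chr14:44293351 read 5.56 and 2.20, and 3 other detected probes of its locus lay between -0.28 and -0.21. For chr12:55846515 (5.35 and 3.46), chr1:93815364 (4.05 and 1.02) and chr6:83406382 (3.83 and 2.80) the other detected probes of the locus lay within 0.62 of 0. Their nearest named genes, Snx6 at -0.20 for the first and Hdac4, a histone deacetylase, at 0.21 for the second, were not near the limit. The member chr8:74828626 (5.16 and 4.04) lay 16452 bases from Klf2, a Kruppel-like factor, at -1.001, while another probe of its locus was at 0.46.

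The member chr6:36790278 read -0.30 in tooth and -3.56 in skin, or -3.26, and its locus mate chr6:36789352 was at -1.32. Dgki, a diacylglycerol kinase gene on the same strand 6618 bases away, was above background in tooth only. At chr4:128728377, which read 0.59 and -2.56, 5 other detected probes of the locus ran from -0.32 to 1.13. At chr5:112231326 (0.41 and -2.65) 3 others ran from -0.34 to 0.58, and at chr15:79784119 (-0.64 and -3.48) 4 others ran from -0.13 to 0.99. In 3 of these 4 loci, then, no other detected probe was a member. The second lowest member of all, a lone probe on the reverse strand of chromosome 18, read 3.12 and -2.80, and none of the other probes of its locus was detected on both arrays.

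A few further members, named after their values were seen, lay outside the larger clusters. The member chr3:58601194 read 3.20 in tooth and 0.70 in skin, and no other probe of its locus was detected on both arrays. The member chr15:85537347, in the same locus as the one near Wnt7b, read 3.21 and 1.13, a value of -2.08, and other detected probes of that locus reached 0.66. The member chr12:106619815 read 1.88 and -0.47, while the other detected probe of its locus was at 1.55 and Tunar, a lincRNA of neural cells 980 bases away on the opposite strand, was below background on both arrays. The member chr9:118314102 read 2.21 and 0.31, and Eomes, a T-box transcription factor 80264 bases away, read -3.95 in tooth, above background, and -3.59 in skin, not well above it. The member chr6:82637363 (-0.16 in tooth, -2.36 in skin) had Hk2, a hexokinase of glycolysis, at -1.15 on the opposite strand. By contrast, both members near Pvrl3, a nectin of cell junctions, lay at -1.32 and Pvrl3 at -1.12.

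The genes next to the members were compared with the genes next to all detected lincRNA probes, using the nearest named-gene probe within 100 kb. A neighbour was found for 199 members, and for 147 it was detected on both arrays. At or below -1 were the neighbours of 87 of these 147 members (59.2%), against 370 of 3317 detected lincRNA probes with a measured neighbour (11.2%), the members among them. Their median difference was -1.08 for the members and -0.01 for all. Part of these pairs restate the selected value, because the gene probe overlaps the member or reads the same transcript, as at Snhg18, Man1a2, Tusc3 and Crnde. Within 1000 bases of the gene probe lay 53 of the 147 members. Beyond that distance 50 of 94 members (53.2%) had a neighbour at or below -1, against 11.3% of all, and beyond 10000 bases 27 of 55 (49.1%), against 13.4%. Neighbours at or above 1 stood beside 2 members, at Wnt7b and Gm7227, and beside 309 of the 3317 probes (9.32%). Since members of a cluster share a neighbour, the count was repeated with the lowest member of each locus. At or below -1 were then 31 of 76 neighbours (40.8%), or 12 of 34 (35.3%) beyond 10000 bases. The shares over all detected lincRNA probes were not reduced to 1 probe per locus. With each gene counted once, 32 of 74 neighbours of members were at or below -1, against 116 of 950 over all.

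The pairs were also counted by strand. Of the 120 members transcribed in the direction of their measured neighbour 80 had a neighbour at or below -1, and of the 27 in the opposite direction 7 did. Over all detected lincRNA probes the corresponding counts were 227 of 2007 and 143 of 1310. With 1 member per locus the shares were 26 of 56 (46.4%) in the same direction and 5 of 20 (25.0%) in the opposite one. The difference was not tested, and the counts over all were not reduced in this way. Among the 120 the member lay downstream of the gene probe for 65 (54.2%), of which 40 neighbours were at or below -1. It lay upstream for 55, of which 40 were. Over all detected lincRNA probes 1155 of 2007 (57.5%) lay downstream, with 115 neighbours at or below -1 (9.96%). Upstream lay 852, with 112 such neighbours (13.1%). The median distance between a member and its measured neighbour was 5312 bases, against 11380 for all. Whether such members are parts of the neighbouring gene's transcript was not tested.

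**Figure D4:**
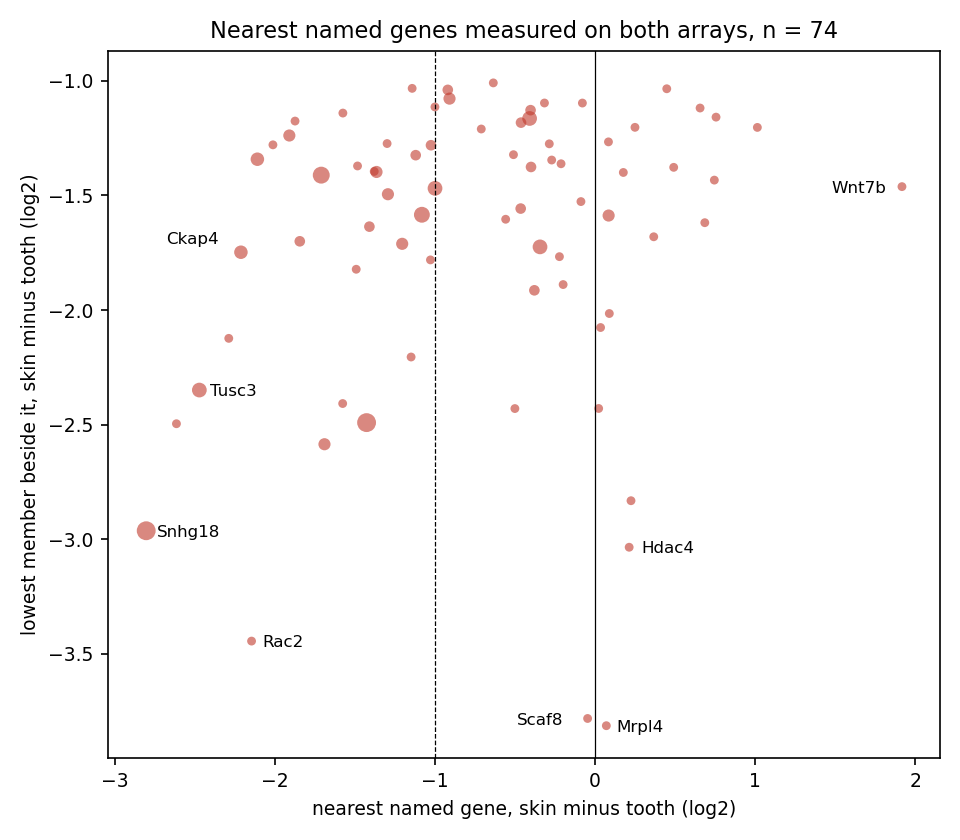
Skin minus tooth (log2) of the 74 nearest named genes detected on both arrays (horizontal) against the lowest member beside each (vertical), with larger points for more members; the dashed line marks -1 for the genes. For 32 of the genes the value lies at or below -1, against 116 of the 950 genes next to all detected lincRNA probes. Wnt7b lies farthest to the right at 1.92.

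Some pairs on one strand, picked after the values were seen, had gene and members all at or below -1. Rnf150, a RING finger gene, was at -2.29 with a member at -2.12 placed 2484 bases away. Tet1, a methylcytosine dioxygenase, was at -1.85 with 2 members at -1.70 and -1.46. Ckap4, a membrane protein of the endoplasmic reticulum, was farther from its members, at -2.21 with 4 members from -1.75 to -1.41. Pxdc1 was at -2.11 with 4 members from -1.34 to -1.01. Anxa5, a calcium-dependent phospholipid-binding protein, read 6.34 in tooth and 4.85 in skin, or -1.48, and the member 598 bases from it was at -1.37. Other neighbours were level: Ppp2ca, a phosphatase catalytic subunit, was at -0.22 beside a member at -1.77, and Smad5, a BMP signal transducer on the other strand, at -0.21 beside a member at -1.36.

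The opposite strand of the member spans was examined where the array covers it. Probes for the opposite strand were printed for 138 members, and for 83 of these (60.1%) at least 1 was detected on both arrays, against 2217 of 2962 detected lincRNA probes (74.8%) and 291 of 368 probes higher in skin (79.1%). With a lenient detection call the shares were 89.9%, 93.6% and 94.6%. Members of a cluster share opposite-strand probes, and the difference between the shares was not tested. The 130 opposite-strand probes so detected had a median difference of 0.14, and 21 were members themselves, as at Plekha8, where 3 reverse-strand and 2 forward-strand members at chr6:54594225-54595592 all lay between -1.16 and -1.03. Of the 130, 14 were at or above 1. Over all 4867 detected lincRNA probes the median was 0.29, 210 (4.31%) were members and 608 were at or above 1.

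The member probes held 44.3% GC ± 7.76 (SD over 210 probes), all detected lincRNA probes 47.2% ± 8.92 and all 16248 lincRNA probes 44.1% ± 7.74. The median span printed for a member was 9280 bases long, against 13475 for all detected. The letters AATAAA, those of the common polyadenylation signal, were present in the printed strand of 16 members (7.62%), 192 detected lincRNA probes (3.94%) and 19 of those higher in skin (3.13%). In the printed strand of named genes detected on both arrays, whose probes are mostly placed near the transcript end, the share was 16.5%. Counting its reverse complement as well, the shares were 10.5% of members, 6.78% of detected lincRNA probes and 5.76% of those higher in skin. Of the members that held the letters, 3 are printed to show their place in the probe, with these letters in capitals.
chr3:58601194: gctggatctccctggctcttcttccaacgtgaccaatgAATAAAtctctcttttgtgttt
chr10:66560781: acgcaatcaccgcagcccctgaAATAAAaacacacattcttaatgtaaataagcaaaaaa
chr1:139822684: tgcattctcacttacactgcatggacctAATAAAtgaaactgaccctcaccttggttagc
Their differences were -2.50, -2.43 and -2.23. A match of letters is a description of the probe and not evidence of a transcript end.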

How the data were processed

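Total RNA of WT tooth and WT skin was measured on 1-colour Agilent whole-mouse arrays, 1 array per tissue on the same slide. Per the file headers, the authors deposited Feature Extraction 10.7.3.1 output, in which the intensity is the background-subtracted processed signal of each spot, with an error and calls for background, saturation and outliers. The deposited series value table holds the authors' processed values, a linear ratio per probe, and served as an alternative only. The study's methods name a percentile shift as normalization, but the percentile was not given in the sources used here. Probe positions refer to mm9.

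Spots flagged as outliers and control spots were left out, log2 processed signals were averaged per probe, and the 75th percentile over 55675 non-control probes was subtracted. A probe was detected when a share above 0.5 of its spots was well above background. Of 33182 named probes, 27234 were matched to RefSeq symbols by accession, the other 5948 kept the array's names, which can be old, and the probe with the highest mean stood for a gene. No test was possible with 1 array per tissue. Members named are the 20 lowest differences, the 10 highest tooth signals, the members of the largest regions and clusters, those around the limit and those beside genes of fixed lists; others were named after their values were seen, as stated there. The members and lists were chosen with earlier results of these data known. The code of the selection rule was run on simulated arrays with known differences put in beforehand. That run checks the code only and bears on no value given here. Used were Python 3.11.15, pandas 2.3.3, numpy 2.4.6, matplotlib 3.10.9, R 4.3.3 and limma 3.58.1. Precision is limited by the number of arrays.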

Additional observations from a re-analysis of the deposited data

How the results depend on the processing

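No paired analysis was possible because each tissue had 1 array. The 210 members became 321 with median scaling, 252 with quantile normalization, 707 with spike-in scaling, 195 with the percentile taken over detected probes, 203 with the deposited value table and 210 with outlier spots kept. Median, quantile and spike-in scaling kept all 210. Spike-in scaling, over 8 transcripts, shifted the detected lincRNA probes by -0.62 and median scaling by -0.25. With normexp background correction 90 remained, of which 89 were among the 210, and the median of the 210 was -0.88. The lenient detection call gave 522, detection on at least 1 array 601 and no filter 819, while a call on every spot gave 210. Counted as regions there were 130. The median of other detected probes in the member regions, -0.20, became -0.46 with detection on at least 1 array, -0.82 with spike-in scaling, -0.45 with median scaling and 0.0117 with normexp, so its sign depended on the background correction. Members were 2.84 percentage points lower in GC than detected lincRNA probes but 0.20 higher than all on the array. Neighbours at or below -1 numbered 84 to 112 under 5 other settings of distance, strand and scaling, against 87, and in alternatives chosen after seeing the data 50 of 94 beyond 1000 bases and 27 of 55 beyond 10000 bases. Opposite-strand detection went from 83 members (60.1%) to 124 (89.9%) with the lenient call, and over all detected lincRNA probes from 74.8% to 93.6%. For the reversed or moved values the cause was not tested. No replicate bears on any value, and dim signals limit what detection on both arrays can include.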

Other observations

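Outside the rule, 1285 lincRNA probes were above background on the tooth array only, and for 80 of them tooth was at least 2-fold higher by a bound, computed as the tooth value less the higher of the dimmest skin signal well above background (-3.73) and the probe's own skin value. Of these 80, 22 lay in a region with a member, as did 66 of all 1285. The probe at chr6:36790218, next to the member near Dgki, had a tooth value of 0.57 and a skin value of -3.94, a bound of at least 19.7-fold higher. In the cluster on chromosome 1, chr1:139856842 was at least 6.15-fold and chr1:139857024 at least 5.81-fold higher. Away from the members, chr7:68849522 was at least 7.14-fold higher.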
